A study of Mus musculus with 8 samples.

Results

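The glutamate and GABA receptor genes are the 48 genes whose symbols name a subunit of an ionotropic glutamate receptor (Gria, Grik, Grin or Grid), a metabotropic glutamate receptor (Grm) or a GABA receptor (Gabr or Gabbr), out of 24306 symbols with a usable estimate. They were chosen by symbol, with no use of their levels. The set holds 4 AMPA, 5 kainate, 2 delta and 7 NMDA receptor genes, 8 metabotropic glutamate receptor genes, 19 GABA-A and 2 GABA-B receptor genes, and the antisense transcript Grin1os. Poly(A) RNA was sequenced in 4 groups of 2 libraries: Wdr68 knockout (KO) neural progenitor cells (NPC), wild-type NPC, KO embryonic stem cells (ESC) and wild-type ESC. Wdr68, listed as Dcaf7, encodes a WD-repeat adaptor protein that the series title places in the PRC1-AUTS2 complex, and the comparisons address what its loss does to expression before and after neural differentiation. All groups derive from the mouse ESC line E14, which was grown with LIF, serum and inhibitors of MEK and GSK3. NPC were made from embryoid bodies that spent 2 days in hanging drops of 500 cells, 2 days in suspension and 4 more days with retinoic acid. ESC were grown on fibroblast feeders or on gelatin. The labels do not say how many KO clones were used, where the gene was cut, or whether the duplicates of a group were separate cultures, so the p-values cover no more than the variation seen between the libraries of a group, and this can be technical in origin.

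Glutamate is the main fast excitatory transmitter of the brain and GABA the main inhibitory one. AMPA, kainate and NMDA receptors are tetrameric cation channels, and their subunit make-up sets calcium permeability, kinetics and voltage dependence. GABA-A receptors are pentameric chloride channels built mostly of alpha, beta and gamma subunits, whereas metabotropic glutamate receptors and GABA-B receptors act through G proteins. Neural progenitors and immature neurons can transcribe several of these genes before synapses form, and GABA can depolarise such cells because their internal chloride is high.

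Shown next are RefSeq promoter windows of the 3 members that fell most and the member that rose most in KO NPC, by log2 change. The windows (GRCm38.p6) run from 250 bases before to 50 bases after the annotated start, written 5′ to 3′ on the gene's strand. They are Gria2 (chr3:80802786-80803085, minus strand), Grm2 (chr9:106656060-106656359, minus strand), Grik2 (chr10:49788705-49789004, minus strand) and Grin2c (chr11:115267194-115267493, minus strand). Capitals mark the letters TTNAGCACC and, as further motifs searched on both strands, the letters GGACAGC and also the run of letters GGGCGG.
Gria2: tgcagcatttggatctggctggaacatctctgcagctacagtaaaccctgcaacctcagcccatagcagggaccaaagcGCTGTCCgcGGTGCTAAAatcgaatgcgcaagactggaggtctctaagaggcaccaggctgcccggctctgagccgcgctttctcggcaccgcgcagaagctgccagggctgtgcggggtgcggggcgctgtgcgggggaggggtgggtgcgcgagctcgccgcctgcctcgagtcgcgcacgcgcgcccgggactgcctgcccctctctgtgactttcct
Grm2: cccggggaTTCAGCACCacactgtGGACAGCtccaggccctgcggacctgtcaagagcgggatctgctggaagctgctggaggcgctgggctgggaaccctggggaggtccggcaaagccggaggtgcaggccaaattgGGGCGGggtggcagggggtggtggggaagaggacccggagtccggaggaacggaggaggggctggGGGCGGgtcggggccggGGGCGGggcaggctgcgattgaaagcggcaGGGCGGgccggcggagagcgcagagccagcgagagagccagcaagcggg
Grik2: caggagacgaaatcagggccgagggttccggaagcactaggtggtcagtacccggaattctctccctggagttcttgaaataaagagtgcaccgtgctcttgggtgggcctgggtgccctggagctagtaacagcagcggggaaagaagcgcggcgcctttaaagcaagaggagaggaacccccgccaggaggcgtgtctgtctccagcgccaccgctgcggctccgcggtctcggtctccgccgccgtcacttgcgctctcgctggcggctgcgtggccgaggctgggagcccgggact
Grin2c: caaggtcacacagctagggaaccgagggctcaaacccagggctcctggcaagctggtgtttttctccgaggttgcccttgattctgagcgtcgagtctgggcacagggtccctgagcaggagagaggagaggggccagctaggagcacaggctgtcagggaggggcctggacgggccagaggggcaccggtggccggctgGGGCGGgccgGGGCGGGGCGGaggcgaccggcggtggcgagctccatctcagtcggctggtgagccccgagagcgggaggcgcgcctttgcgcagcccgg
Windows were found for 33 of the 48 members, 40 windows in all. The letters TTNAGCACC and, on the other side of a short gap, GGACAGC belong to the element bound by REST, a repressor of neuronal genes outside neurons. The third motif, GGGCGG, is the core of the GC box. These motifs were chosen after the sequences had been read. Both REST motifs occurred together in the Gria2 window, next to each other on the reverse strand, and in the Grm2 window on the forward strand, and in none of the other 38 member windows. Among all 32851 windows of the same length, 29 held both (0.0883%), 0.846% held TTNAGCACC and 6.56% held GGACAGC. The GC box core GGGCGG occurred in 19 of 40 member windows (47.5%) against 35.7% of all windows, among them Grm2 and Grin2c. CAGCTG, an E-box, occurred in 1 of 40 member windows against 16.3% of all. The Grik2 window held none of the motifs searched. The numbers of CpG sites were 26 in Gria2, 22 in Grm2, 26 in Grik2 and 22 in Grin2c, against a median of 7 over all windows. Of all windows, 83.1% held fewer than 26 and 76.9% fewer than 22, so many other windows held as many.

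Most receptor genes were at or near 0 in all groups. The mean level reached 1 FPKM (fragments per kilobase of transcript, made relative to library depth) in 8 members in KO NPC, 13 in wild-type NPC, 4 in KO ESC and 4 in wild-type ESC. The shares of the 48 were 16.7%, 27.1%, 8.33% and 8.33%, where 49.0%, 50.2%, 45.0% and 45.1% of all symbols reached that level in the same groups. The order by mean in KO NPC began with Grin2c (15.1 ± 0.833), Grik5 (14.8 ± 0.336) and Gabbr1 (10.1 ± 2.06), followed by Gria3 (4.28 ± 0.0702) and Grik4 (2.14 ± 0.365; SD, n = 2 each). In wild-type NPC it began with Grik5 (14.8 ± 0.919) and Gabbr1 (11.7 ± 0.446), and Gria2 (4.01 ± 0.464) and Grik2 (2.88 ± 0.653) were among those that followed. In ESC of both genotypes Gabbr1 and Grik3 led. The summed FPKM of the 48 members was 57.2 and 59.0 in KO NPC, 61.0 and 57.5 in wild-type NPC, 28.8 and 26.5 in KO ESC, and 24.0 and 25.9 in wild-type ESC. The summed level was thus higher in NPC than in ESC, and the KO and wild-type NPC libraries overlapped in that sum. Grin2c alone gave 15.7 and 14.6 FPKM of the KO NPC sums, against 0.788 and 0.421 FPKM in wild-type NPC. The overlap therefore does not describe the other members.

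**Figure D1:**
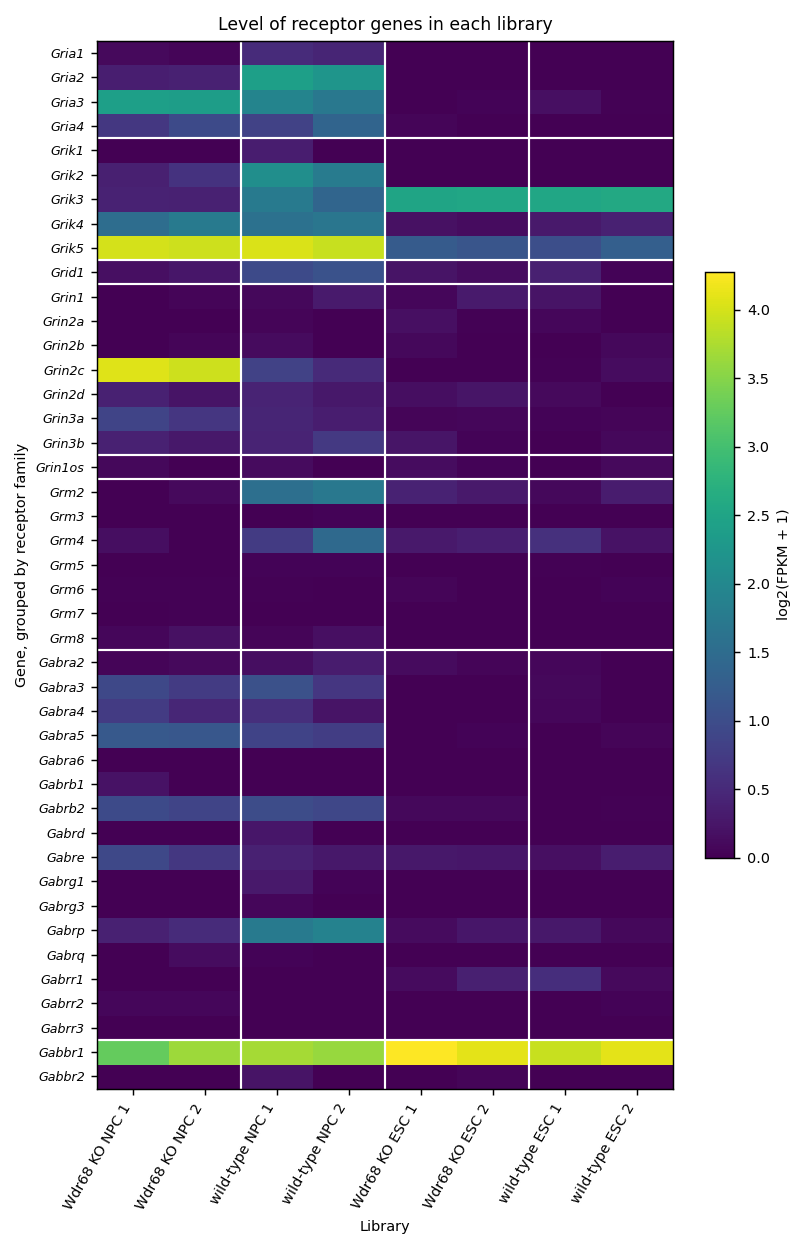
Level of the receptor genes reported here in each of the 8 libraries, as a heat map of log2(FPKM + 1), with families down the page and KO and wild-type NPC to the left of KO and wild-type ESC. Most rows are dark throughout, and the brightest cells of the NPC columns are Grik5 and Gabbr1 in both genotypes and Grin2c in KO NPC.

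Changes were tested for the 14 members with at least 1 FPKM in at least 2 libraries, with limma on log2(FPKM + 1) over all 13318 symbols that met this minimum and Benjamini-Hochberg adjustment (threshold 0.05). A member could meet the minimum through the group in which it was high, so the 14 do not stand for all 48. Close to the minimum, by their second-highest library, Gabra5 (1.24 FPKM) was just inside, and Gria4 (0.955 FPKM) and Gabrb2 (0.948 FPKM) just outside. Log2 changes are of FPKM + 1 and understate the change of genes with a low level. Dcaf7 was lower in both KO groups, at 8.36 and 8.99 FPKM in KO NPC against 27.2 and 29.6 FPKM in wild-type NPC, and at 2.80 and 2.26 FPKM in KO ESC against 12.4 and 14.2 FPKM in wild-type ESC. The fragments implied by the tables summed to between 5996677 and 7942644 per library, and 1 FPKM stood for a median of 20 to 30 fragments.

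In KO NPC against wild-type NPC, the receptor genes moved in both directions. The test passed for 11 of the 14, of which 4 were higher and 7 lower, where 27.4% of all symbols tested passed (14.7% higher, 12.7% lower). The median log2 change of the 14 was -0.37, against 0.05 over all symbols tested. Gria2, Grm2, Grik2, Gabrp and Grik3 were among those that fell, and Grin2c, Gria3 and Gabra5 among those that rose. Grik5, Grik4 and Gabbr1 did not pass.

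**Figure D2:**
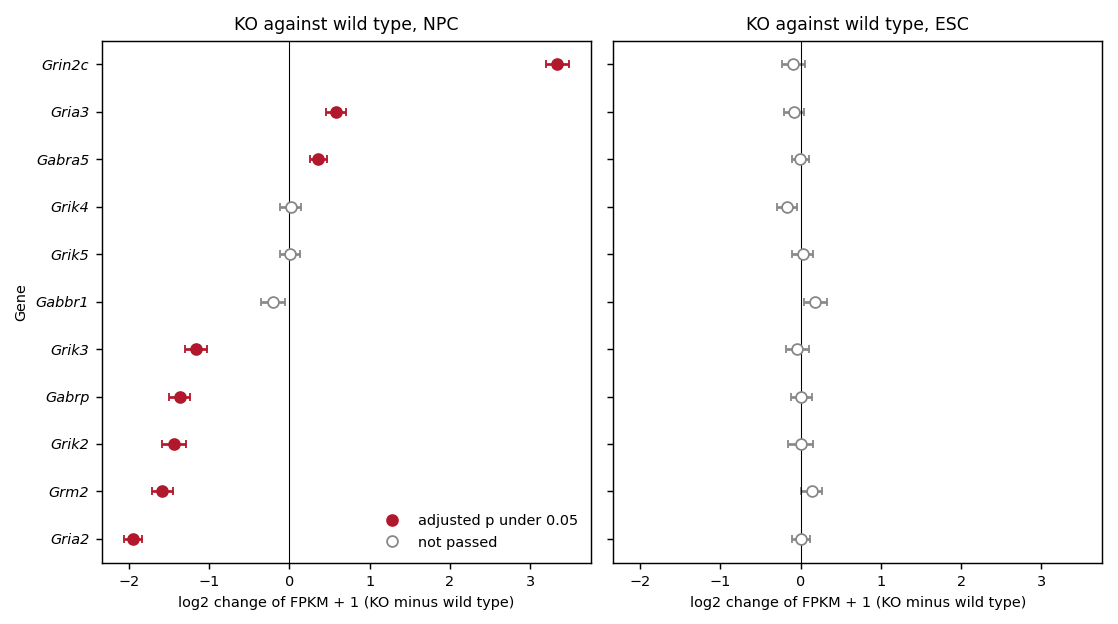
Log2 change of FPKM + 1, KO minus wild type, with its standard error for the tested members reported here, in NPC on the left and in ESC on the right. In NPC, filled points (adjusted p under 0.05) run from -1.95 for Gria2 to 3.34 for Grin2c, and in ESC every point is open and lies between -0.17 for Grik4 and 0.18 for Gabbr1.

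Among the AMPA receptor genes the NPC difference ran in opposite directions for Gria2 and Gria3. Gria2, the subunit whose edited pore makes the channel nearly impermeable to calcium, had 0.288 and 0.309 FPKM in KO NPC, against 4.34 and 3.68 FPKM in wild-type NPC. The groups lay far apart, and both ESC groups were listed at 0. The log2 change was -1.95 ± 0.11 (SE; adjusted p = 5.38e-05, limma). Gria3, another pore-forming subunit, had 4.33 and 4.23 FPKM in KO NPC, against 2.82 and 2.28 FPKM in wild-type NPC, so both KO libraries were the higher ones. Its log2 change was 0.58 ± 0.13 (adjusted p = 0.0146), and it passed under 10 of 15 alternatives (adjusted p 0.01 to 0.208). The call was lost with a pseudocount of 0.1, with a fit of only the groups compared, and without wild-type NPC replicate 2, KO NPC replicate 1 or KO NPC replicate 2. Gria2 made up 5.42% and 5.57% of the summed AMPA receptor FPKM in KO NPC, against 51.7% and 46.5% in wild-type NPC. Gria3 made up 81.5% and 76.3% in KO NPC, against 33.5% and 28.8% in wild-type NPC. The summed AMPA receptor level was 5.31 and 5.54 FPKM in KO NPC and 8.39 and 7.92 FPKM in wild-type NPC. The remaining AMPA subunits were below the minimum. Gria4 had 0.613 and 0.955 FPKM in KO NPC and 0.797 and 1.59 FPKM in wild-type NPC, which overlap. Gria1, the subunit best known from plasticity at hippocampal synapses, had 0.0835 and 0.0468 FPKM in KO NPC and 0.439 and 0.361 FPKM in wild-type NPC, which do not.

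**Figure D3:**
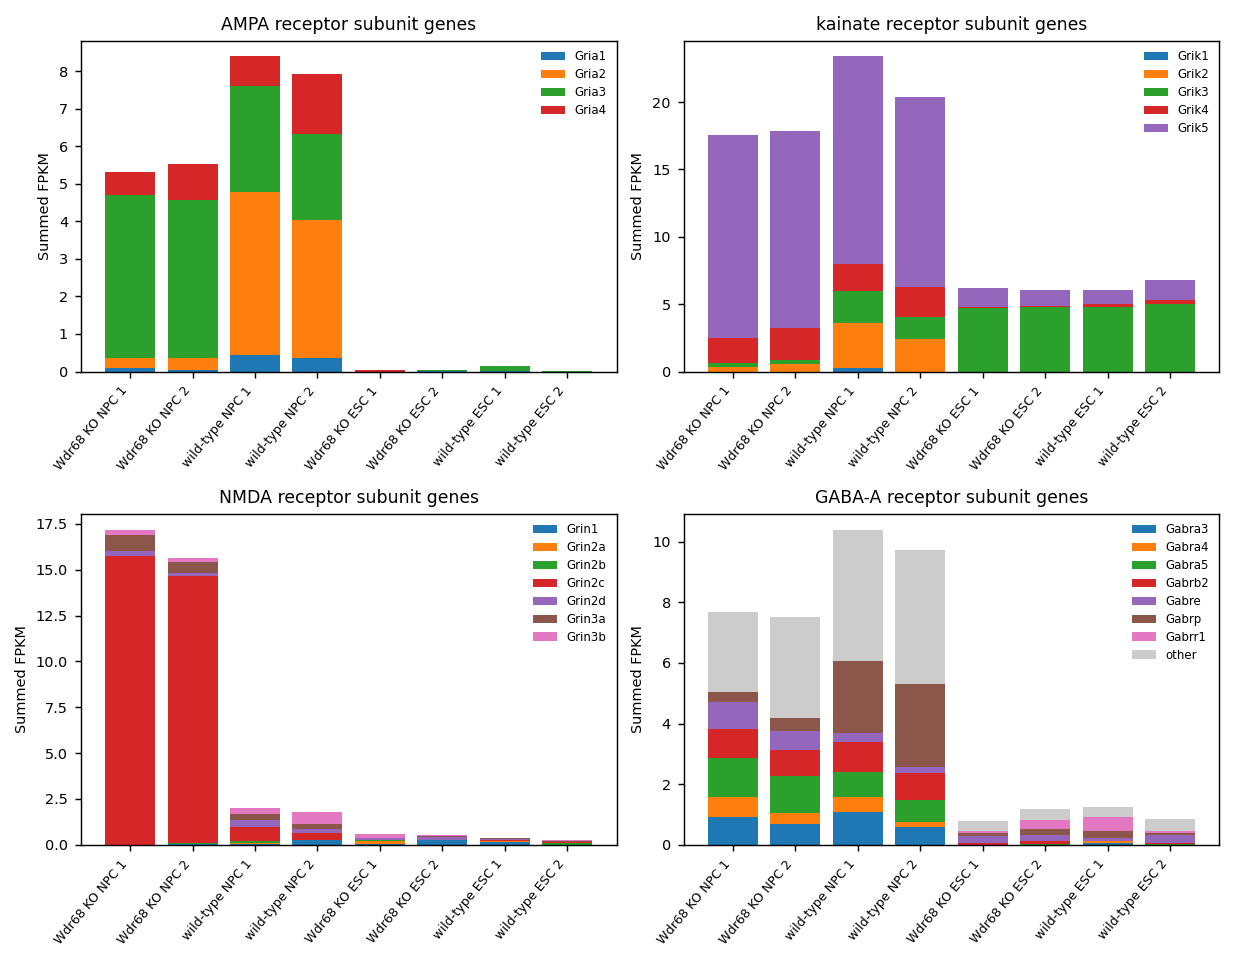
Summed FPKM of the AMPA, kainate, NMDA and GABA-A receptor genes in each library, stacked by gene (grey for the GABA-A genes not shown singly), with KO NPC and wild-type NPC to the left of KO ESC and wild-type ESC. Gria3 fills most of the AMPA bars of KO NPC while Gria2 and Gria3 share those of wild-type NPC, and the NMDA bars of KO NPC, at 17.2 and 15.6 FPKM, are almost all Grin2c.

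Of the tested kainate receptor genes, the low-affinity subunits fell in KO NPC and the high-affinity ones did not pass. Grik2, which forms functional channels by itself, had 0.300 and 0.545 FPKM in KO NPC, against 3.34 and 2.42 FPKM in wild-type NPC. Grik3, a low-affinity subunit, had 0.331 and 0.311 FPKM in KO NPC, against 2.35 and 1.62 FPKM in wild-type NPC. Neither gene's groups overlapped. The log2 change was -1.44 ± 0.15 for Grik2 (adjusted p = 0.000624) and -1.17 ± 0.14 for Grik3 (adjusted p = 0.00125). Grik4 and Grik5 encode the high-affinity subunits, which need a low-affinity partner to form a working channel. Grik5 had 15.1 and 14.6 FPKM in KO NPC, against 15.4 and 14.1 FPKM in wild-type NPC, and Grik4 had 1.89 and 2.40 FPKM in KO NPC, against 2.01 and 2.2 FPKM in wild-type NPC. The KO values overlapped with the wild-type ones for both, and the log2 changes were 0.01 ± 0.13 for Grik5 (adjusted p = 0.987) and 0.01 ± 0.13 for Grik4 (adjusted p = 0.957). Grik5 made up 85.7% and 81.7% of the summed kainate receptor FPKM in KO NPC, against 65.9% and 69.4% in wild-type NPC. Grik1, which also forms channels by itself, had 0.262 FPKM in wild-type NPC replicate 1 and was at 0 in the other 7 libraries.

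Entries listed close to the kainate receptor genes differed between the NPC groups too. The noncoding gene C130030K03Rik, 3619 bases from Grik2, had 0.176 and 0.0822 FPKM in KO NPC, against 1.31 and 1.01 FPKM in wild-type NPC, and was at 0 in ESC, the same order of groups as Grik2. The microRNA entry Mir692-3, which lies within the Grik3 locus, was listed at 37309 and 34875 FPKM in KO NPC and 25859 and 27190 FPKM in wild-type NPC, and at 99288 and 110534 FPKM in KO ESC and 99893 and 96441 FPKM in wild-type ESC. Between the NPC groups this order was the reverse of that of Grik3, while both entries were higher in ESC than in NPC. Mir692-3 overlaps Grik3 by 109 bases, and whether such high values of so short an overlap measure a transcript level was not tested. The part of these neighbouring entries in the receptor values was not tested.

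The NMDA receptor genes were low in both NPC groups apart from Grin2c, a subunit best known from adult cerebellar granule cells. Grin2c (chr11:115110483-115128557 in mm9) had 15.7 and 14.6 FPKM in KO NPC, against 0.788 and 0.421 FPKM in wild-type NPC. No other tested member had as large a log2 change of FPKM + 1 between the NPC groups. The Grin2c mean was 25.1 times as high in KO NPC as in wild-type NPC, with a log2 change of 3.34 ± 0.14 (adjusted p = 1.99e-05). The implied fragments were 843 and 835 in KO NPC against 45.8 and 18 in wild-type NPC. Grin1, the subunit that every NMDA receptor needs, had 0 and 0.0443 FPKM in KO NPC and 0.0663 and 0.233 FPKM in wild-type NPC, with at most 8.3 implied fragments in any of the 8 libraries. Its antisense partner Grin1os, which overlaps it by 7709 bases, reached at most 0.104 FPKM. The kit kept strand, but whether the authors' counting used it is not given in the sources used here, so reads of the pair may not be told apart. Grin2a and Grin2b, the main partners of Grin1 in the forebrain, did not exceed 0.130 and 0.0896 FPKM in any library. Grin2d had 0.309 and 0.173 FPKM in KO NPC and 0.346 and 0.210 FPKM in wild-type NPC, which overlap. Grin3b had 0.308 and 0.210 FPKM in KO NPC and 0.340 and 0.643 FPKM in wild-type NPC. Grin3a, which lowers the calcium permeability of NMDA receptors, had 0.832 and 0.605 FPKM in KO NPC and 0.356 and 0.265 FPKM in wild-type NPC, which do not overlap.

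The genes beside Grin2c, looked up after its values had been seen, were also higher in KO NPC, by less. Fdxr, which encodes the mitochondrial ferredoxin reductase, lies 781 bases away on the same strand (strand from GENCODE on GRCm38). It had 6.11 and 7.07 FPKM in KO NPC and 3.43 and 2.90 FPKM in wild-type NPC, with a log2 change of 0.87 ± 0.13 (adjusted p = 0.00278). Tmem104, 2143 bases away, had 2.39 and 2.58 FPKM in KO NPC and 1.12 and 1.36 FPKM in wild-type NPC. In ESC, where Fdxr stood at 6.32 and 5.5 FPKM in KO and 5.14 and 5.08 FPKM in wild type, Grin2c was 0 in both KO libraries and 0.0228 and 0.107 FPKM in wild type. Whether transcripts run from Fdxr into Grin2c was not tested.

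Of the delta receptor genes, whose products bind cerebellins and organise synapses, Grid1 had 0.133 and 0.2 FPKM in KO NPC, against 0.947 and 1.12 FPKM in wild-type NPC, just under the minimum.

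Of the metabotropic glutamate receptor genes, Grm2 met the minimum. It encodes a presynaptic receptor that lowers transmitter release, and it had 0 and 0.0775 FPKM in KO NPC, against 1.96 and 2.28 FPKM in wild-type NPC. The log2 change was -1.59 ± 0.13 (adjusted p = 0.000217), from 0 and 3.0 implied fragments in KO NPC against 75.1 and 62.7 in wild-type NPC. Grm4, a receptor of a related presynaptic group, had 0.115 and 0 FPKM in KO NPC and 0.680 and 1.77 FPKM in wild-type NPC, and its wild-type libraries stood far apart. Grm3, Grm5, Grm6, Grm7 and Grm8 did not exceed 0.139 FPKM anywhere.

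**Figure D4:**
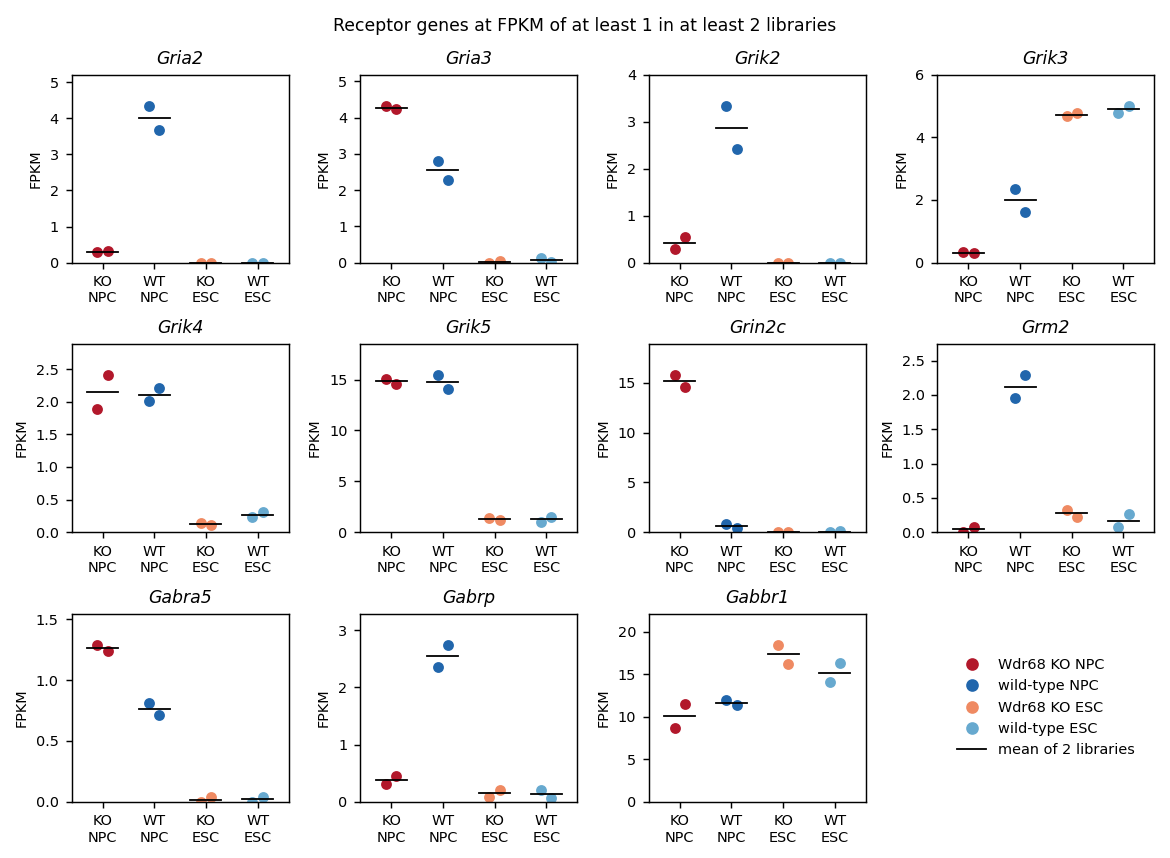
FPKM of the tested receptor genes reported here, by library, 1 panel a gene, with KO NPC, wild-type NPC, KO ESC and wild-type ESC from left to right. Gria2, Grm2, Grik2 and Gabrp are high in wild-type NPC, Grin2c in KO NPC, and Grik3 is highest in ESC at 4.68 to 5.00 FPKM.

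The GABA-A receptor genes also moved in both directions in KO NPC, with Gabrp lower and Gabra5 higher. Gabrp, the pi subunit known mainly from epithelia and the reproductive tract, had 0.308 and 0.445 FPKM in KO NPC, against 2.35 and 2.74 FPKM in wild-type NPC. Each KO library was below each wild-type library, with a log2 change of -1.37 ± 0.13 (adjusted p = 0.000411). Gabra5, an alpha subunit of extrasynaptic receptors in the hippocampus, had 1.29 and 1.24 FPKM in KO NPC, against 0.814 and 0.710 FPKM in wild-type NPC. Its log2 change of 0.36 ± 0.10 (adjusted p = 0.0401) passed under 4 of 15 alternatives, and the call was lost without any 1 of 7 libraries, wild-type NPC replicate 1 being the exception (adjusted p 0.0139 to 0.198). The summed GABA-A receptor level was 7.68 and 7.52 FPKM in KO NPC and 10.4 and 9.74 FPKM in wild-type NPC. Gabrp made up 4.01% and 5.92% of it in KO NPC, against 22.6% and 28.2% in wild-type NPC.

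Of the GABA-A receptor genes below the minimum, several lie in clusters of subunit genes. Gabrb2 had 0.948 and 0.844 FPKM in KO NPC and 0.995 and 0.880 FPKM in wild-type NPC, which overlap. Gabra6 was at 0 in all 8 libraries, and Gabrg3 had 0.0547 FPKM in wild-type NPC replicate 1 and 0 elsewhere. On chromosome X, Gabre had 0.898 and 0.623 FPKM in KO NPC and 0.319 and 0.212 FPKM in wild-type NPC. Its neighbour Gabra3 had 0.903 and 0.669 FPKM in KO NPC and 1.08 and 0.593 FPKM in wild-type NPC, which overlap, and Gabrq did not exceed 0.102 FPKM. On chromosome 5, Gabra4 had 0.680 and 0.370 FPKM in KO NPC and 0.492 and 0.168 FPKM in wild-type NPC, and Gabra2, Gabrg1 and Gabrb1 did not exceed 0.256, 0.229 and 0.156 FPKM in any library. Gabrd had 0.192 FPKM in wild-type NPC replicate 1 and 0 elsewhere. Of the rho subunits, known from the retina, Gabrr2 did not exceed 0.0532 FPKM and Gabrr3 was at 0 in all 8 libraries. Gabrr1 was at 0 in all NPC libraries and had 0.0909 and 0.297 FPKM in KO ESC and 0.469 and 0.0737 FPKM in wild-type ESC.

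The GABA-B receptor needs both of its subunits at the cell surface, and they differed widely in level. Gabbr1, which binds GABA, had 8.62 and 11.5 FPKM in KO NPC, against 12 and 11.3 FPKM in wild-type NPC. The KO and wild-type values overlapped, and the log2 change of -0.20 ± 0.14 did not pass (adjusted p = 0.349). Gabbr2, which carries Gabbr1 to the surface and couples to the G protein, had 0.169 FPKM in wild-type NPC replicate 1 and 0.0459 FPKM in KO ESC replicate 2, and was at 0 in the other 6 libraries.

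In ESC, no receptor gene passed the test between KO and wild type, where 0.248% of all symbols did. The median log2 change of the 14 was 0.00, and 1 of them had an unadjusted p under 0.05 in limma. Many of the 14 were at or near 0 in wild-type ESC, so a fall could hardly have been seen there. Examples are Gria2 and Grik2 (both 0 FPKM), Gabrp (mean 0.137 FPKM) and Grm2 (mean 0.163 FPKM). Grik3 had 4.68 and 4.76 FPKM in KO ESC, against 4.78 and 5.00 FPKM in wild-type ESC, a difference of -0.04 ± 0.14 on the log2 scale. Gabbr1 had 18.4 and 16.2 FPKM in KO ESC, against 14.1 and 16.2 FPKM in wild-type ESC. Grik5 had 1.36 and 1.2 FPKM in KO ESC, against 1.03 and 1.47 FPKM in wild-type ESC. The difference between the KO effects in NPC and in ESC passed for 10 of the 14 (3 positive, 7 negative), where 16.8% of all symbols passed (8.41% positive, 8.39% negative), with a median of -0.58 against 0.06 over all symbols.

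Most of the tested receptor genes were higher in NPC than in ESC. In wild-type NPC against wild-type ESC, 10 of 14 were higher and 1 lower, where 72.6% of all symbols passed (41.6% higher, 31.1% lower). The median log2 change was 1.36, against 0.15 over all symbols. Grik5 rose most, to 15.4 and 14.1 FPKM in wild-type NPC, against 1.03 and 1.47 FPKM in wild-type ESC (log2 change 2.82 ± 0.13, adjusted p = 2.02e-06). Gria2 (2.32 ± 0.11) and Grik2 (1.95 ± 0.15), both listed at 0 in ESC, rose next most. Gria3 (1.72 ± 0.13), Gabrp (1.64 ± 0.13), Grm2 (1.43 ± 0.13) and Grik4 (1.29 ± 0.13) rose as well. Gabra5 (0.79 ± 0.10) and Grin2c (0.58 ± 0.14) rose less, and the Grin2c call was lost with quantile normalization (adjusted p = 0.5). Gabbr1 did not pass. Grik3 was the 1 that fell, with 2.35 and 1.62 FPKM in wild-type NPC against 4.78 and 5.00 FPKM in wild-type ESC (log2 change -0.99 ± 0.14, adjusted p = 0.000535). Grik3 made up 79.2% and 73.8% of the summed kainate receptor FPKM in wild-type ESC. The split depended on the scaling. Median-ratio scaling gave 10 higher and 3 lower and quantile normalization 8 and 3. Among all symbols, 4913 of 13279 were higher and 4751 lower with median-ratio scaling. With quantile normalization 4578 of 13318 were higher and 4735 lower. The 2 scalings moved the median of all symbols by more than 0.1, to 0.02 and -0.01.

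In KO NPC against KO ESC, 9 of 14 were higher and 3 lower, where 70.3% of all symbols passed (41.6% higher, 28.8% lower), with a median of 0.76 against 0.17 over all symbols. With quantile normalization, where 4490 of all 13318 symbols were higher and 4396 lower, the split of the members was 7 and 4. The largest rise was that of Grin2c, to 15.7 and 14.6 FPKM in KO NPC against 0 in both KO ESC libraries (log2 change 4.01 ± 0.14, adjusted p = 7.64e-07). Grik5 rose by 2.80 ± 0.13 and Gria3 by 2.38 ± 0.13 on the log2 scale, and Grik4 (1.48 ± 0.13) and Gabra5 (1.15 ± 0.10) rose as well. Grik3 fell to 0.331 and 0.311 FPKM in KO NPC, against 4.68 and 4.76 FPKM in KO ESC (log2 change -2.11 ± 0.14, adjusted p = 1.23e-05). Gabbr1 (-0.74 ± 0.14) also fell. Gria2 (0.38 ± 0.11, adjusted p = 0.0193) and Grik2 (0.50 ± 0.15, adjusted p = 0.0196) rose in KO as well, by less than in wild type, and both calls were lost with quantile normalization and without KO ESC replicate 1, KO ESC replicate 2 or KO NPC replicate 2. Grm2 and Gabrp did not pass. The KO and wild-type stage comparisons share no library, and they differ for each member by the difference between KO effects given above.

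Genes that work with the receptors were read against the same shares of all symbols tested in KO NPC, 27.4% in either direction (14.7% higher, 12.7% lower). Of 15 auxiliary subunits, which set receptor trafficking and gating, 8 were tested, and 1 was higher and 5 lower, with a median log2 change of -0.86 against 0.05 over all symbols. Lhfpl4, which anchors GABA-A receptors at inhibitory synapses, had 0.302 and 0.530 FPKM in KO NPC, against 7.41 and 5.58 FPKM in wild-type NPC (log2 change -2.40 ± 0.15, adjusted p = 7.72e-05). Neto1, an auxiliary subunit of kainate receptors, had 1.16 and 1.09 FPKM in KO NPC, against 0.0966 and 0.0659 FPKM in wild-type NPC (0.98 ± 0.10). The AMPA receptor partners Cacng4 (-1.51 ± 0.30), Cacng7 (-0.91 ± 0.23) and Cnih2 (-0.90 ± 0.19) fell, and so did Shisa7 (-0.83 ± 0.12). Neto2, another kainate receptor partner, had 14.4 and 15.8 FPKM in KO NPC and 15.8 and 13.5 FPKM in wild-type NPC, and like Grik5 did not pass. Of 23 scaffold and adhesion genes, 16 were tested, and 1 was higher (Shank3, 0.63 ± 0.13) and 4 lower (Dlgap3, -1.28 ± 0.15; Homer2, -0.55 ± 0.11; Shank1, -0.50 ± 0.15; Dlgap4, -0.35 ± 0.10). The share of the 16 that passed was near that of all symbols. Dlg4, the postsynaptic scaffold PSD-95, had 12 and 11.4 FPKM in KO NPC and 11.9 and 8.57 FPKM in wild-type NPC, which overlap.

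Of 18 genes of glutamate and GABA synthesis, uptake and packaging, 11 were tested, and 0 were higher and 4 lower in KO NPC, where 14.7% of all symbols tested were higher and 12.7% lower, with a median log2 change of -0.32. Gad1, which makes GABA, had 0.114 and 0.399 FPKM in KO NPC, against 2.23 and 2.79 FPKM in wild-type NPC (-1.49 ± 0.18). Slc32a1, which loads GABA into vesicles, had 0.265 and 0.248 FPKM in KO NPC, against 2.01 and 2.99 FPKM in wild-type NPC (-1.46 ± 0.15). The glutamate transporter Slc1a2 (-1.90 ± 0.16) fell as well. Slc12a2, the chloride importer that keeps GABA depolarising in immature neurons, had 15.0 and 14.3 FPKM in KO NPC and 13.2 and 13.2 FPKM in wild-type NPC and did not pass (adjusted p = 0.324). Of 5 glycine receptor genes 2 were tested. Glra1 was listed at 0 in both KO NPC libraries, against 4.27 and 2.66 FPKM in wild-type NPC (-2.13 ± 0.17, adjusted p = 0.000203), and Glrb did not pass.

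In ESC, none of the tested auxiliary, scaffold, transmitter or glycine receptor genes passed in limma between KO and wild type, and 2 of them, Cacng8 and Dlgap3, had an unadjusted p under 0.05. Cacng8, an AMPA receptor partner, had a log2 change of 0.92 ± 0.24 (adjusted p = 0.215), and Neto2 came next among the auxiliary genes (-0.26 ± 0.13, adjusted p = 0.471). The scaffold genes with the smallest p were Dlgap3 (-0.39 ± 0.15, adjusted p = 0.357) and Nlgn2 (-0.17 ± 0.09, adjusted p = 0.493). The transmitter genes with the smallest p were Gad1 (-0.32 ± 0.18, adjusted p = 0.503) and Glul (0.12 ± 0.08, adjusted p = 0.558). In wild-type NPC against wild-type ESC, where 72.6% of all symbols tested passed (41.6% higher, 31.1% lower), 6 auxiliary genes were higher and 0 lower, led by Neto2 (3.45 ± 0.13), Lhfpl4 (2.72 ± 0.15), Cacng4 (2.66 ± 0.30) and Cacng7 (2.16 ± 0.23). Of the scaffold genes 13 were higher, led by Grip1 (2.96 ± 0.14), which binds AMPA receptors, Homer3 (2.79 ± 0.12) and Dlg4 (2.48 ± 0.22), and 1 was lower (Dlgap3, -2.33 ± 0.15). Of the transmitter genes 8 were higher, led by the glutamate transporter Slc1a3 (3.01 ± 0.14), the GABA-degrading Abat (2.85 ± 0.11) and Slc1a2 (2.54 ± 0.16), and 2 were lower, among them the glutaminase Gls2 (-2.65 ± 0.21). Both tested glycine receptor genes were higher (Glra1, 2.1 ± 0.17; Glrb, 1.67 ± 0.22). In KO NPC against KO ESC, where 70.3% passed (41.6% higher, 28.8% lower), 6 auxiliary genes were higher, led by Neto2 (3.76 ± 0.13), Cnih2 (1.51 ± 0.19), Cacng7 (1.47 ± 0.23) and Neto1 (1.09 ± 0.10), and Cacng8 was lower. Of the scaffold genes 11 were higher there, led by Dlg4 (2.97 ± 0.22), Grip1 (2.67 ± 0.14) and Homer3 (2.53 ± 0.12), and 2 were lower, Dlgap3 (-3.22 ± 0.15) and Pick1 (-0.61 ± 0.17). Of the transmitter genes 6 were higher, led by Abat (2.89 ± 0.11) and Slc1a3 (2.65 ± 0.14), and 3 were lower, among them Gls2 (-2.67 ± 0.21) and Glul (-0.22 ± 0.08). Glrb was higher in KO NPC as well (1.63 ± 0.22), and Glra1, at 0 in KO NPC, did not pass.

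**Figure D5:**
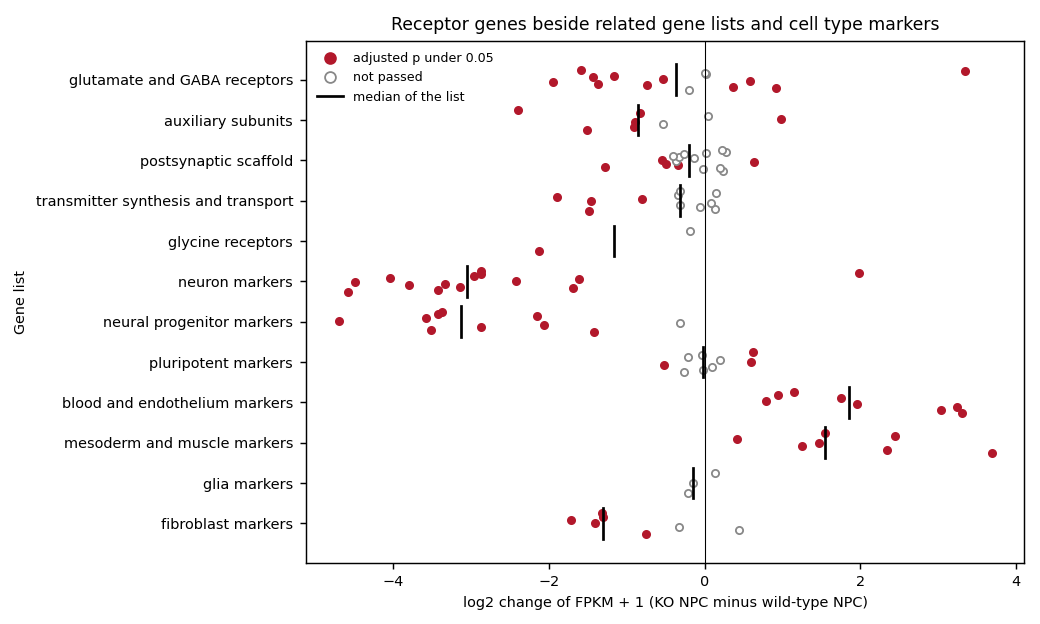
Log2 change of FPKM + 1 in KO NPC against wild-type NPC for the tested genes of each list, 1 row a list, with the median marked. Receptor genes spread on both sides of 0 with a median of -0.37, neuron and neural progenitor markers have medians of -3.05 and -3.13, and blood, endothelium and mesoderm markers lie above 0.

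The cell type markers of the NPC groups moved with these genes. Of 14 neuron markers 13 were lower and 1 (Isl1) higher in KO NPC, with summed levels of 34.5 and 39.8 FPKM in KO NPC against 424 and 455 FPKM in wild-type NPC, and none was at 0 in either group. Of 10 tested neural progenitor markers 9 were lower, with sums of 47.5 and 50.5 FPKM in KO NPC against 301 and 296 FPKM in wild-type NPC, and of the 11 listed Olig2 was at 0 in KO NPC. Nes, the tested progenitor marker that did not pass (adjusted p = 0.0786, limma), had 25.4 and 22.4 FPKM in KO NPC. In wild-type NPC it had 29.8 and 30.2 FPKM, and Nes made up a large part of the KO progenitor sums. Most of the other neural markers were thus lower in the KO libraries that the labels call NPC. All 8 tested blood and endothelium markers were higher, with sums of 859 and 1055 FPKM in KO NPC against 120 and 91.0 FPKM in wild-type NPC, where Gata1 was at 0 in wild-type NPC. All 7 tested mesoderm and muscle markers were higher, with sums of 137 and 114 FPKM in KO NPC against 21.1 and 18.2 FPKM in wild-type NPC, and Myog was at 0 in all libraries. Of 3 tested glial markers none passed, of 7 fibroblast markers 5 were lower, and of 9 pluripotency markers 2 were higher and 1 lower. The part of these markers in the receptor changes was not tested. In bulk RNA, fewer cells of a type and less RNA per cell cannot be told apart. Gria2, Grik2, Grik3, Grm2 and Gabrp moved the same way as the summed neuron markers, Grin2c, Gria3 and Gabra5 the opposite way, and Grik5 and Grik4 did not pass while the neuron markers fell.

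The 34 members below the minimum were fitted only in the alternative without a filter, which took in 32 of them, since Gabra6 and Gabrr3 were at 0 throughout. Without a filter 19233 symbols were tested, and the shares given here are of those. In KO NPC against wild-type NPC, where 19.4% passed (9.83% higher, 9.53% lower), 2 were higher, Gabre (log2 change 0.47, adjusted p = 0.0276) and Grin3a (0.39, adjusted p = 0.0197). Among the 4 that were lower were Grm4 (-1.03, adjusted p = 0.0369), Grid1 (-0.80, adjusted p = 0.00733) and Gria1 (-0.39, adjusted p = 0.00306). The share of the 32 that passed was near that of all symbols. In wild-type NPC against wild-type ESC 10 were higher and 0 lower, where 55.0% of all symbols passed (31.9% higher, 23.1% lower). In KO NPC against KO ESC 6 were higher and 0 lower, where 52.2% passed (31.5% higher, 20.7% lower). Between KO and wild-type ESC 0 passed in either direction in limma, where 0.12% of all symbols did (0.0572% higher, 0.0624% lower), and 0 of the 32 had an unadjusted p under 0.05 there. These genes rest on few fragments, such as 37.7 and 32.7 implied fragments for Grid1 in wild-type NPC.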

How the data were processed

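Poly(A) RNA libraries were made with a directional kit from total RNA, per the labels' protocols. Reads were aligned to mm9 and gene levels estimated with TopHat2 2.1.1 and Cufflinks 2.2.1, per the submitters' processing notes. The authors deposited FPKM values with 95% confidence bounds and no counts. Symbols with several entries (285, none a receptor gene) were summed, and 12 symbols with a failed estimate were left out. A linear model of log2(FPKM + 1) was fitted in limma 3.58.1 (R 4.3.3), using a mean for each of the 4 groups and a trended prior variance, which left 4 residual degrees of freedom. It took in 13318 symbols, those that reached 1 FPKM in 2 or more libraries, and two-sided p-values were Benjamini-Hochberg adjusted per contrast (threshold 0.05). The fit was tested on simulated data.

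Implied fragments were computed from the gap between each FPKM and its upper bound. They lay within 0.05 of a whole number for 66.9% to 71.6% of genes with fewer than 5 fragments and 1 start site. The relation was not checked for genes with several start sites (Gria1 and Gria3 among the members).

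Members were named by rule, and those that passed the minimum were given per library. The values of some genes, members among them, are not reported here, but counts, medians and sums include them. Of the other receptor-related lists, up to 4 called genes with the largest change were to be named, and Cacng8, Pick1, Neto2, Cnih2, Shisa7, Dlg4, Slc12a2, Fdxr, Tmem104, C130030K03Rik and Mir692-3 were added after their values were seen. The members and lists were chosen with earlier results of these data known. Gene positions are those of the tables (mm9). Promoter windows are from RefSeq on GRCm38.p6 and serve only for sequence.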

Additional observations from a re-analysis of the deposited data

Results flagged for a closer look

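The difference between the KO effects was itself tested (limma contrast, KO effect in NPC minus KO effect in ESC, adjusted over all symbols). Of all symbols tested, 16.8% passed (8.41% positive, 8.39% negative). Of the 14 tested receptor genes 10 passed (3 positive, 7 negative). Among those reported here, the difference was positive for Grin2c (3.43 ± 0.20, SE, adjusted p = 0.000224) and Gria3 (0.65 ± 0.18, adjusted p = 0.0476). It was negative for Gria2 (-1.95 ± 0.16, adjusted p = 0.000533), Grm2 (-1.72 ± 0.19, adjusted p = 0.00157) and Grik2 (-1.44 ± 0.21, adjusted p = 0.00543). It was also negative for Gabrp (-1.38 ± 0.18, adjusted p = 0.00361) and Grik3 (-1.12 ± 0.20, adjusted p = 0.0114). Gria2 and Grik2 were listed at 0 in every ESC library, so their difference equals the NPC effect and no fall could have been seen in ESC. Gabrp and Grm2 were near the floor in wild-type ESC (means of 0.137 and 0.163 FPKM), which left little room for a fall. Grik3 was expressed in both stages, and its KO effect was -1.17 in NPC and -0.04 in ESC. The call for Gria3 held under 3 of 14 alternatives (adjusted p 0.0266 to 0.176). Leaving out any 1 library ended it, except wild-type NPC replicate 1.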

How the results depend on the processing

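Of 48 calls (Dcaf7 included), 38 held under every alternative run, and of 1130 alternative values none reversed, 47 lost and 10 gained a call. Counts of called members moved most with the filter, because without one 46 members were fitted and at 5 FPKM only 3. In KO against wild-type NPC 17 passed without a filter (19.4% of all symbols did) and 1 at 5 FPKM. In wild-type NPC against ESC 21 (55.0% of all symbols) and 2 passed. At 5 FPKM 3 passed in KO NPC against ESC and 1 for the difference between the KO effects. Of all 9727 symbols at 5 FPKM, 1574 were higher and 1059 lower in KO against wild-type NPC, and 3803 and 3443 in wild-type NPC against ESC. In KO NPC against ESC these counts were 3999 and 3128, and for the difference 860 and 690. Leaving out 1 library at a time gave 9 to 11, 11 to 12, 10 to 12 and 8 to 9 for these comparisons, and 0 for KO against wild-type ESC. A lone sample left in a group was taken to vary like the others. Same-numbered samples shared only a number (correlation of their deviations -0.0543 to 0.179). With the replicate block the counts of calls were 10 in KO against wild-type NPC, 11 in wild-type NPC against ESC, 12 in KO NPC against ESC, 9 for the difference and 0 in ESC. Among all 13318 symbols the higher and lower calls were, in the same order, 1822 and 1601, 5511 and 4121, 5496 and 3813, 993 and 1077, and 10 and 5. The Grin2c rise in wild-type NPC was lost with quantile normalization (adjusted p = 0.5), as was that of Gabra5 (adjusted p = 0.0588), and Dcaf7 in ESC was lost when only the ESC groups were fitted (adjusted p = 0.27). The cause was not tested. Depth limits genes with a low level, since 1 FPKM stood for a median of 20 to 30 fragments, and for more in longer genes.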
